A study of Mus musculus with 2 samples.

Results

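Neuropeptides and granins were followed through every cell class of the adult mouse striatum. The 10 genes, *Penk*, *Pdyn*, *Tac1*, *Sst*, *Npy*, *Cck*, *Vip*, *Pcsk1n*, *Scg2* and *Vgf*, were taken by symbol from the 32285 genes counted in both single-cell RNA sequencing (scRNA-seq) libraries, and all 10 symbols were present. Both libraries (replicates 1 and 2 of the same group) came from untreated mice of 8 to 10 weeks with no transgene, labelled as strain C57/Bl6J in one field and C57BL/6NTac in another. Striatal tissue was digested with pronase and passed through a debris removal step, and the suspension was labelled glia enriched, which limits it as a sample of neurons. The animals behind each library are not given, so p values measure only how far class differences varied between these 2 libraries. That spread was estimated over all classes compared together, with information shared between genes, and may be technical. An SE or p value can therefore understate how far a single gene differed between the libraries.

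Neuropeptides are cut from larger precursor proteins inside dense-core vesicles and are released to act on G protein-coupled receptors. Granins such as secretogranin II (*Scg2*) and the related protein VGF are acidic cargo proteins of the same vesicles and are themselves cut into peptides, whereas proSAAS (*Pcsk1n*) is a small granin-like precursor known as an inhibitor of proprotein convertase 1. In the striatum, enkephalin from *Penk* is the classical peptide of Drd2 projection neurons of the indirect pathway, and substance P from *Tac1* and dynorphin from *Pdyn* are those of Drd1 projection neurons of the direct pathway. A sparse class of interneurons makes both somatostatin and neuropeptide Y.

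The libraries held 6978 and 5437 barcodes with 44597660 and 37982720 unique molecular identifiers (UMIs, one per captured transcript end), at a median of 3852 and 5375 UMIs per barcode. After removal of barcodes with fewer than 300 detected genes and of 96 and 159 called doublets, 6802 and 5205 cells were kept, and 8 of their barcode sequences occurred in both libraries. Clusters were built without the 10 genes and 56 other peptide genes and were named from marker lists. The neuron-like class held 382 and 259 cells, or 5.62% and 4.98% of the libraries, with all 12 neuron markers raised. It had the highest median mitochondrial share of UMIs of the classes (10.5% and 14.1%), it fell from 641 to 315 cells with a limit of 20%, and it included a subcluster of 54 and 14 cells led by astrocyte genes (*Slc1a2*, *Slc1a3*, *Ndrg2*). The other classes used were microglia-like (1117 and 1023 cells), oligodendrocyte-like (1221 and 1181), astrocyte-like (1326 and 988), neuroblast-like (1157 and 486, including cycling cells led by *Top2a* and *Mki67*), endothelial-like (806 and 600), oligodendrocyte precursor cell (OPC)-like (300 and 341), mural-like (313 and 241) and macrophage-like (94 and 75). Levels are given as CPM, the UMIs of a gene scaled to 1e6 UMIs of its class in one library, and shares and levels carry 95% exact intervals that cover counting error only. Microglia-like cells, which are not known to make these peptides, served as the measure of UMIs that reach a cell as free RNA.

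The genes lie on 9 different chromosomes of the mouse genome (GRCm38), all as protein-coding genes. *Penk* spans chromosome 4, 4133531 to 4138819 (minus strand), *Pdyn* chromosome 2, 129686565 to 129699844 (minus), *Tac1* chromosome 6, 7554879 to 7565834 (plus) and *Npy* chromosome 6, 49822710 to 49829507 (plus). *Sst* spans chromosome 16, 23889573 to 23890958 (minus), *Cck* chromosome 9, 121489824 to 121495694 (minus) and *Vip* chromosome 10, 5639218 to 5647617 (plus). *Pcsk1n* spans chromosome X, 7919822 to 7924410 (plus), *Scg2* chromosome 1, 79434669 to 79440120 (minus) and *Vgf* chromosome 5, 137026392 to 137033351 (plus). The cAMP response element (CRE), the motif bound by CREB after a rise in cAMP, was searched in RefSeq promoter windows (GRCm38.p6), which held 8 of the 10 genes, over the 250 bases before the RefSeq start. That start can differ from the gene bounds given above, which are from GENCODE. The windows of *Sst*, *Scg2* and *Tac1* thus reach into those bounds, and a second window of *Pdyn* lies inside them. The full palindrome TGACGTCA was found in *Sst* (48 bases before the RefSeq start) and in *Scg2* (68 bases before it), in both genes inside the GENCODE bounds, and 1.55% of 32851 windows of the same length held it on either strand. Its shorter core, TGACG on either strand, was present in 5 of the 8 genes, the full matches included, and in 19.8% of 27025 genes. These are the 30 bases around each full match and around the core match of *Vip*, 5′ to 3′ on the strand of the gene, shown because they are a well-known regulatory element of peptide genes, with the matched letters in capitals:
Sst, chr16:23890874-23890903 (minus): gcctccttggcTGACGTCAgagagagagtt
Scg2, chr1:79440076-79440105 (minus): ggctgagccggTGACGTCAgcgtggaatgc
Vip, chr10:5639127-5639156 (plus): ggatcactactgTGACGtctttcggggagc
A match describes the letters of a window and does not show a bound site.

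The first comparison asked in which class the peptide genes were expressed. All 9 genes that could be tested were higher in neuron-like cells than in the mean of the non-neuronal classes, by 7.40-fold for *Pcsk1n* up to 131-fold for *Vgf*. The largest of their 9 adjusted p values was 1.11e-07 (edgeR quasi-likelihood test, Benjamini-Hochberg adjustment over 15247 genes), and the median log2 fold change was 5.64. Over all genes tested 26.4% were higher and 30.3% lower in this comparison, with a median of -0.17, so a call in itself was common here. The classes were built from other genes of the same cells, and the tests are conditional on them. All 9 calls remained with the mitochondrial limit and without the subcluster led by astrocyte genes. *Vip* had too few UMIs to be tested. The log2 fold change was larger in library 2 than in library 1 for all 9 genes.

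**Figure D1:**
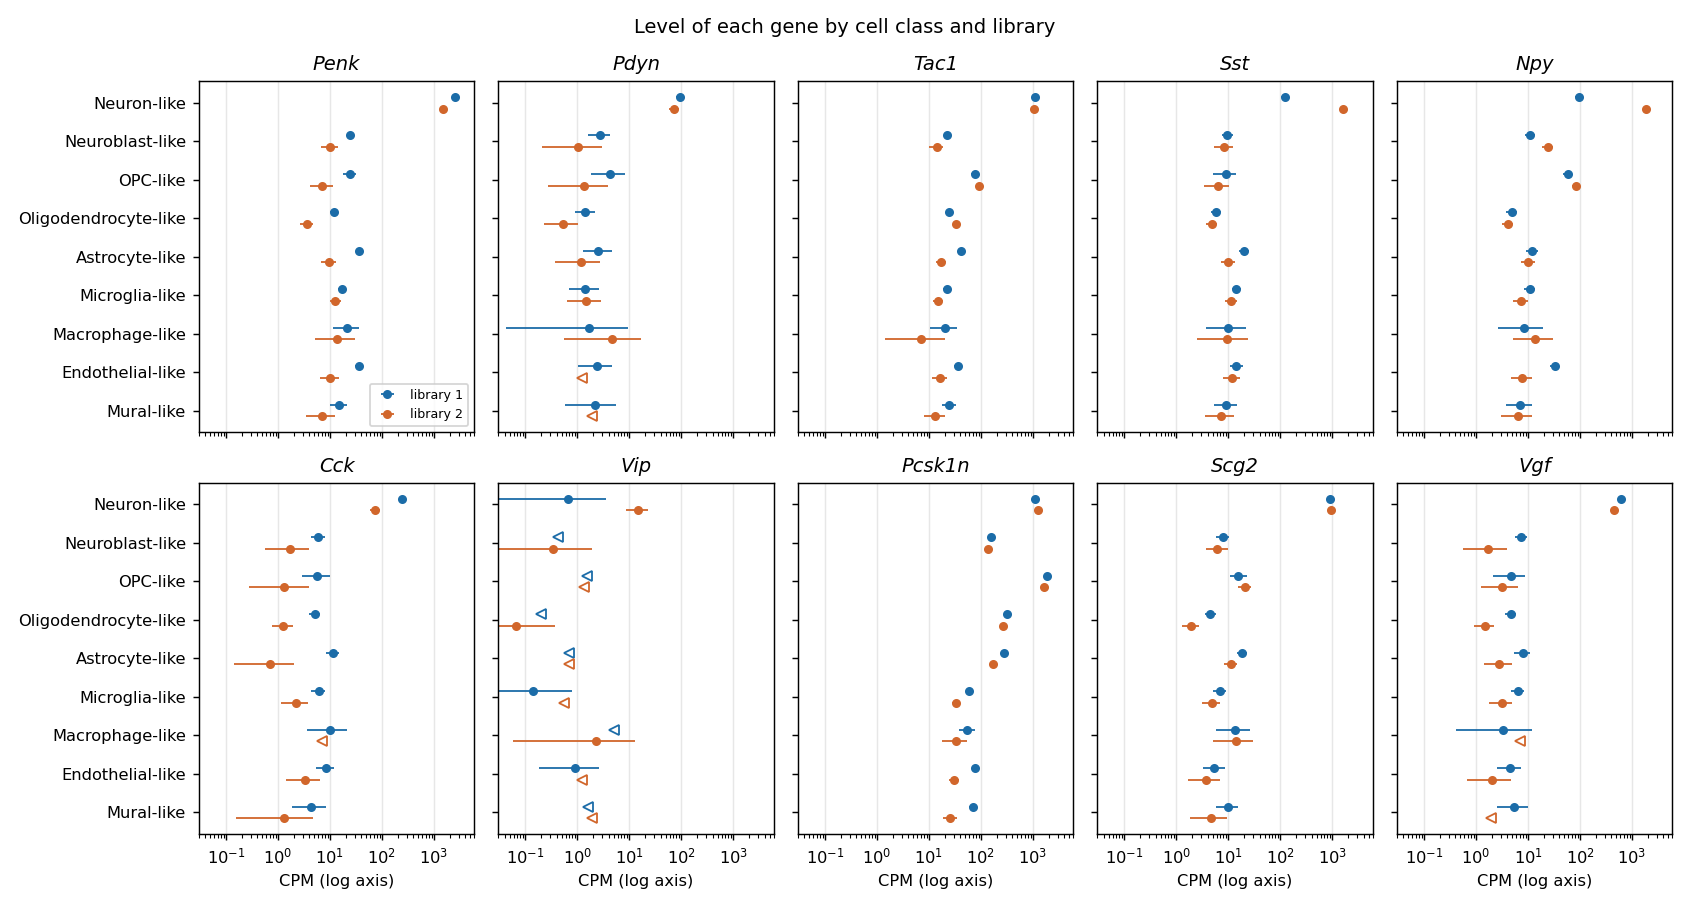
Level of each gene (CPM, log axis) in 9 cell classes, with a point for each library and bars for the exact 95% Poisson interval. Open triangles mark the limit that a count of 0 allows (3 UMIs). The neuron-like class stands to the right of all others for every gene but *Pcsk1n*, where OPC-like cells stand beside it, and *Vip*, whose points rest on 1 cell or on single UMIs.

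*Penk* and *Tac1* were, granins aside, the precursors found in the largest shares of neuron-like cells. *Penk*, the precursor of enkephalins, was at 2527 CPM in library 1 and 1483 CPM in library 2 of the neuron-like class, against 17.5 and 12.8 CPM in microglia-like cells, and no interval overlapped between these classes. Its log2 fold change over the non-neuronal classes was 6.80 ± 0.15 (SE). A UMI of *Penk* was present in 36.9% and 27.4% of neuron-like cells and in 9.94% and 5.38% of microglia-like cells. With each cell thinned to 1000 UMIs, which kept 269 of 382 and 207 of 259 neuron-like cells and 1019 of 1117 and 967 of 1023 microglia-like cells, the shares were 30.9% and 24.6% against 2.16% and 1.45%. Neuron-like cells, 5.62% and 4.98% of all cells, held 82.1% and 88.0% of all *Penk* UMIs.

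*Tac1*, the precursor of substance P and neurokinin A, was at 1115 and 1038 CPM in neuron-like cells and at 22.3 and 15.0 CPM in microglia-like cells. The levels of the libraries thus lay close together in neurons, and the log2 fold change over the non-neuronal classes was 5.00 ± 0.19 (SE). At 1000 UMIs per cell, 34.6% and 38.6% of neuron-like cells had a *Tac1* UMI, against 2.65% and 0.83% of microglia-like cells. Neuron-like cells held only 59.2% and 57.3% of its UMIs, a lower share than for *Penk* in both libraries. *Pdyn*, the dynorphin precursor, was sparse, with 142 and 89 UMIs in neuron-like cells (92.0 and 71.5 CPM) and 10 and 8 UMIs in microglia-like cells (1.41 and 1.46 CPM). Its log2 fold change was 5.33 ± 0.29 (SE).

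*Sst* and *Npy*, which encode somatostatin and neuropeptide Y, differed between the libraries more than the other 7 tested genes. *Sst* was at 120 CPM in neuron-like cells of library 1 and at 1617 CPM in those of library 2, and *Npy* at 95.2 and 1846 CPM. The share of neuron-like cells with a UMI was alike, at 10.2% and 9.27% for *Sst* and 9.42% and 8.88% for *Npy*. In microglia-like cells the mean share over the libraries was 5.74% for *Sst* and 4.41% for *Npy*, at means of 12.7 and 9.08 CPM. Neuron-like cells with at least 3 UMIs numbered 5 and 17 for *Sst* and 6 and 11 for *Npy*. A single cell of library 2, with 11324 UMIs in all, held 1697 *Npy* and 946 *Sst* UMIs, or 73.8% and 47.0% of all those in the neuron-like cells of that library. It also had 23 UMIs of *Chodl* and 7 of *Nos1*, both in the interneuron marker list used to name subclusters. The richest cell of library 1 had 110 *Sst* and 68 *Npy* UMIs among only 1381 UMIs, and held 59.5% and 46.3% of the class. Both genes passed the test over the non-neuronal classes, at log2 fold changes of 5.95 ± 0.46 for *Sst* and 5.64 ± 0.53 for *Npy* (SE). Without replicate 2 the log2 fold changes were 2.96 and 2.36, and without replicate 1 they were 7.30 and 7.12. These are values of single libraries with no test, computed with a prior count of 2 that the fit did not use. The SEs of the fit do not cover this difference between the libraries. UMIs of each gene in its richest cell were also subtracted from every class sum, an alternative added after the data were seen. The log2 fold changes of the fit were then 5.15 and 4.23, and both still passed.

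**Figure D2:**
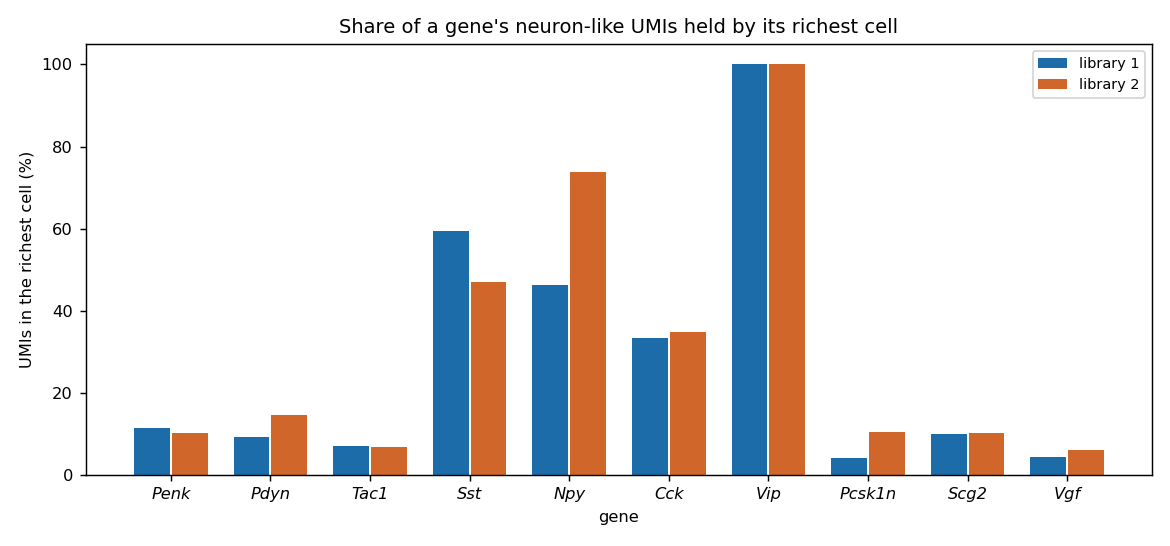
Share of each gene's neuron-like UMIs that came from its richest cell (percent, bars for the 2 libraries). For *Npy* in library 2 the bar stands at 73.8%, for *Vip* 1 cell holds every UMI in either library, and for *Pcsk1n*, *Tac1* and *Vgf* no bar exceeds 10.4%.

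*Cck*, the cholecystokinin precursor, was at 239 and 73.9 CPM in neuron-like cells and at 6.06 and 2.19 CPM in microglia-like cells, with a log2 fold change of 4.90 ± 0.20 (SE) over the non-neuronal classes. Its richest cells, with 123 UMIs in library 1 and 32 in library 2, had 38 and 47 UMIs of *Slc17a7*, the vesicular glutamate transporter of cortical excitatory neurons. *Vip* was all but absent. Library 1 held 5 *Vip* UMIs in 6802 cells, and library 2 held 21 in 5205 cells, of which 18 were in 1 neuron-like cell with only 704 UMIs. That cell also had 22 UMIs of *Cck* and 14 of *Cnr1*, the cannabinoid receptor. With no filter on low counts *Vip* passed the test too, at a log2 fold change of 5.43 that rests on this cell.

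A UMI of *Scg2* was present in 48.4% and 64.1% of neuron-like cells before thinning, and a UMI of *Vgf* in 47.4% and 47.9%. *Scg2* was at 913 and 952 CPM in neuron-like cells and at 6.90 and 4.75 CPM in microglia-like cells. *Vgf* was at 617 and 450 CPM, against 6.34 and 3.11 CPM. Their log2 fold changes over the non-neuronal classes were 6.52 ± 0.14 and 7.03 ± 0.18 (SE). At 1000 UMIs per cell, 37.9% and 44.4% of neuron-like cells had an *Scg2* UMI and 32.3% and 28.5% a *Vgf* UMI, against at most 1.18% of microglia-like cells for *Scg2* and 1.08% for *Vgf*. Among neuron-like cells with at least 3 UMIs of *Vgf*, 72 of 95 and 46 of 65 also had at least 3 of *Scg2*.

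*Pcsk1n* was the one gene not led by neurons. In neuron-like cells it was at 1082 and 1253 CPM, and neuron-like cells held 12.8% and 14.5% of its UMIs. OPC-like cells were at 1841 and 1642 CPM, above neuron-like cells in both libraries with no overlap of the counting intervals. The difference between OPC-like and neuron-like sums, a comparison added after these levels were seen, was 0.44 ± 0.27 (SE) on the log2 scale and did not pass (edgeR adjusted p = 0.206, where 45.7% of all genes passed in either direction), so it was not larger than the spread in the fit. It turned to -0.15 with at least 500 genes per cell and to -0.29 at the finer resolution of 0.32. Under both settings the OPC-like class also took in cells led by genes such as *Bmp4* and *Gpr17*, 934 under the former and 272 under the latter. The 2 sets were unlike in depth, with medians of 2882.5 UMIs for the 934 cells and 12929.5 for the 272. At 500 genes per cell the oligodendrocyte-like class held 1443 cells, against 2402 as reported. The 934 may thus include shallow oligodendrocyte-like cells, which was not tested. At resolution 0.32 the OPC-like cluster led by *Pdgfra* kept 641 cells, while the larger oligodendrocyte-like cluster held 1409 cells in place of 1681. The oligodendrocyte-like class as reported thus probably included those 272 cells. At 1000 UMIs per cell 78.5% (73.3 to 83.1) and 76.0% (71.0 to 80.5) of OPC-like cells had a *Pcsk1n* UMI, and 53.9% (47.7 to 60.0) and 54.6% (47.5 to 61.5) of neuron-like cells. Oligodendrocyte-like cells were at 313 and 268 CPM, astrocyte-like cells at 273 and 172 CPM and neuroblast-like cells at 160 and 137 CPM, all above microglia-like cells at 59.0 and 32.7 CPM.

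**Figure D3:**
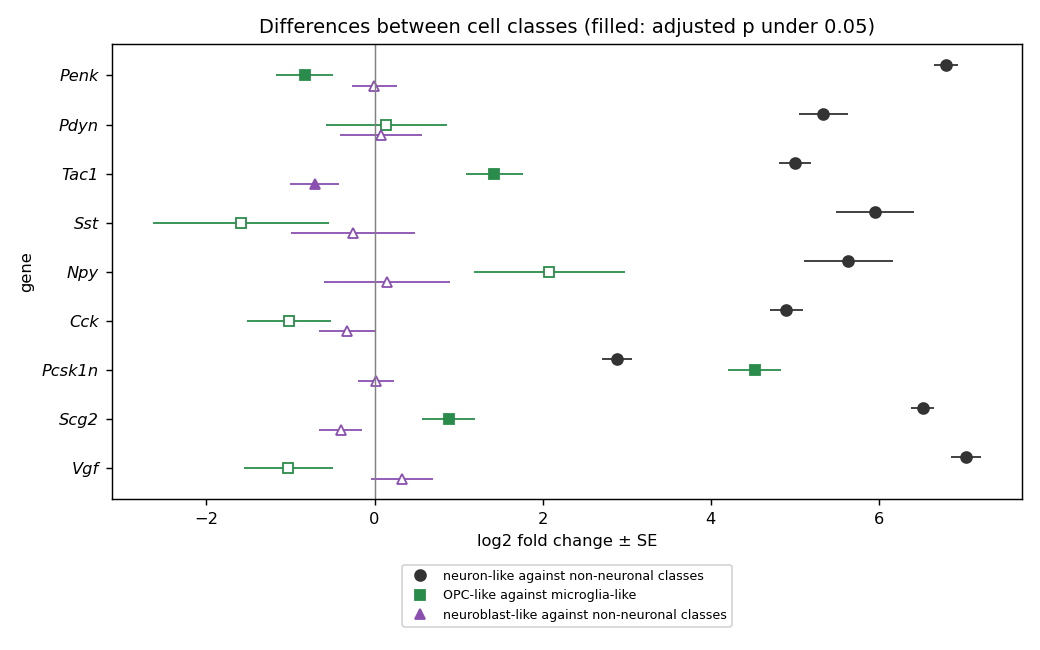
Log2 fold change ± SE of the 9 tested genes in 3 comparisons, filled where the adjusted p was under 0.05. Black circles (neuron-like against non-neuronal classes) lie between 2.89 and 7.03, green squares (OPC-like against microglia-like) rise to 4.52 for *Pcsk1n*, and purple triangles (neuroblast-like against non-neuronal classes) lie between -0.71 and 0.33.

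The next comparison asked whether glial and vascular classes held more of a peptide transcript than microglia-like cells did. Of 45 pairs of 9 genes and 5 classes, 6 were higher, 4 lower and 35 did not pass. *Pcsk1n* accounted for 3 of the 6, with log2 fold changes of 4.52 ± 0.32 in OPC-like, 2.72 ± 0.30 in oligodendrocyte-like and 1.86 ± 0.29 in astrocyte-like cells (SE). In these 3 comparisons 27.8%, 30.1% and 28.2% of all genes tested were higher. The oligodendrocyte-like class probably included cells led by *Bmp4* and *Gpr17*, as given above, and their part in its *Pcsk1n* value was not tested. Endothelial-like and mural-like cells, where 21.2% and 22.9% of all genes were higher, had none of the 9 genes higher. Of all genes, 34.6% were lower in astrocyte-like, 29.0% in oligodendrocyte-like, 31.8% in OPC-like, 25.1% in endothelial-like and 28.7% in mural-like cells.

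*Tac1* was higher in OPC-like than in microglia-like cells. It was at 75.4 and 91.2 CPM there, and its log2 fold change was 1.43 ± 0.34 (SE, edgeR adjusted p = 0.0016). A UMI was present in 31.0% and 36.7% of OPC-like cells, and the richest cell held no more than 4.14% of them, so the level was spread over many cells. At 1000 UMIs per cell the shares were 7.64% (4.85 to 11.3) and 6.61% (4.19 to 9.83), against 2.65% (1.75 to 3.83) and 0.83% (0.36 to 1.62) in microglia-like cells. *Npy* was at 57.7 and 82.8 CPM in OPC-like cells and at 10.8 and 7.31 CPM in microglia-like cells, and its log2 fold change of 2.08 ± 0.89 (SE) just missed the threshold (edgeR adjusted p = 0.0552). It passed under 6 of 11 other settings, among them DESeq2 (adjusted p = 0.0257), and *Npy* was present in 17.3% and 21.7% of OPC-like cells with no cell above 13 UMIs. *Scg2* passed in OPC-like cells (15.6 and 20.5 CPM, 0.88 ± 0.32) and in astrocyte-like cells (18.5 and 11.1 CPM, 0.90 ± 0.29, SE). At 1000 UMIs per cell, 0 of 288 and 3.90% of OPC-like cells had an *Scg2* UMI, against 1.18% and 0.62% of microglia-like cells, so the shares gave no order. The OPC-like call was lost at 500 genes per cell, at the finer resolution and without the library block. The 12 neuron markers summed to 1215 and 1292 CPM in OPC-like cells, 224 and 129 CPM in microglia-like cells and 18440 and 24339 CPM in neuron-like cells, with none at 0, and their part in these levels was not tested. *Penk* did not move with *Tac1* and *Npy*, since its OPC-like level was 24.4 and 7.12 CPM.

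**Figure D4:**
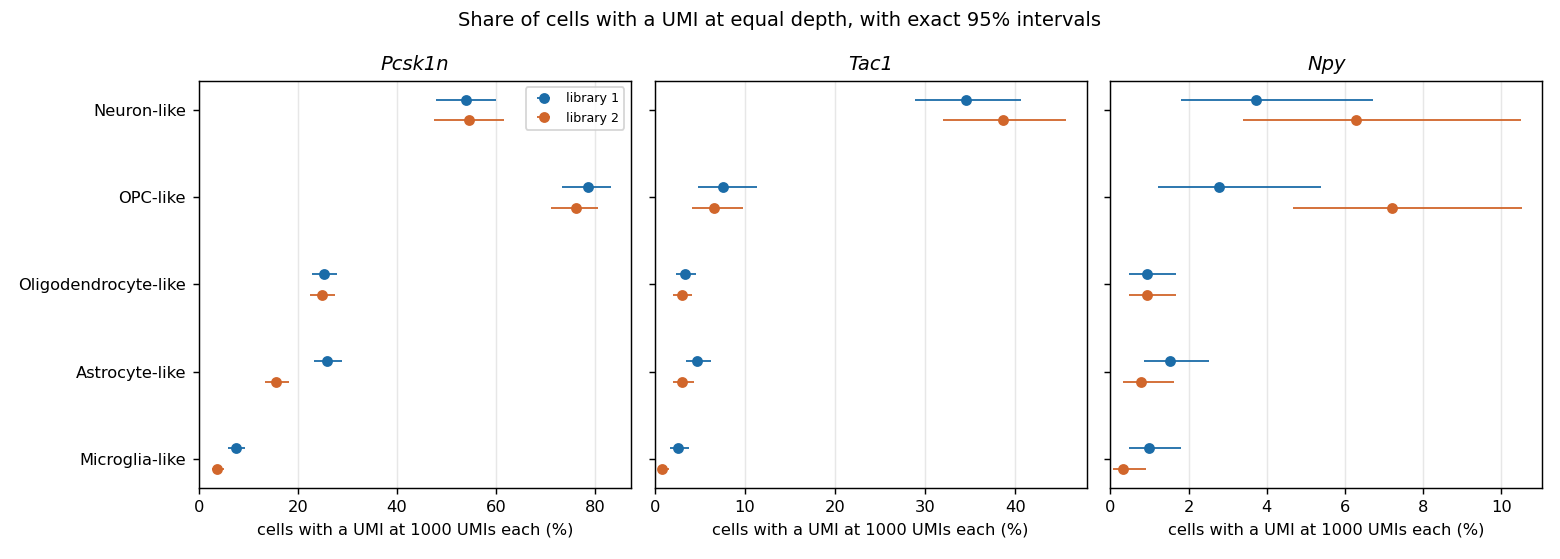
Share of cells with a UMI of *Pcsk1n*, *Tac1* or *Npy* after thinning each cell to 1000 UMIs (percent, with exact 95% binomial intervals, a point for each library). OPC-like cells exceed neuron-like cells for *Pcsk1n*, lie between neuron-like and microglia-like cells for *Tac1*, and overlap with neuron-like cells for *Npy*.

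The 4 lower pairs were *Penk* in oligodendrocyte-like (-1.10 ± 0.29), OPC-like (-0.83 ± 0.34) and mural-like cells (-0.98 ± 0.37) and *Scg2* in oligodendrocyte-like cells (-0.88 ± 0.31, log2 fold change ± SE). All of these levels were low, for example 11.8 and 3.59 CPM for *Penk* in oligodendrocyte-like cells. With library sizes alone, which moved the median of all genes in OPC-like against microglia-like cells from -0.10 to 0.64, the *Penk* value there was -0.06 and the calls in OPC-like and mural-like cells were lost. All 4 lower calls were lost without the library block.

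The proportions of the low counts outside neurons were compared with those in neurons. In neuron-like cells there were 0.047 *Sst* UMIs per *Penk* UMI in library 1 and 1.09 in library 2. The latter value rested largely on a single cell, with 946 of the 2014 *Sst* UMIs and 5 *Penk* UMIs. In microglia-like cells the ratio was 0.81 and 0.89. Over the 7 classes compared outside neurons, microglia-like cells included, it ranged from 0.36 to 0.81 in library 1, all above neuron-like cells, and from 0.83 to 1.33 in library 2, on both sides of them. Neuron-like cells had 0.44 and 0.70 *Tac1* UMIs per *Penk* UMI, where microglia-like cells had 1.27 and 1.17. OPC-like cells had 3.09 and 12.8. The *Tac1* ratio was above that of neuron-like cells in every other class compared, in both libraries. What these proportions come from was not tested.

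A few cells outside the neuron-like class were rich in one peptide. Cells with 10 or more *Tac1* UMIs outside neurons numbered 6 in library 1 and 11 in library 2, and 16 of these 17 were oligodendrocyte-like. This class had the highest median depth, at 11298 and 12140 UMIs, and a fixed limit favours deep cells. UMIs of the neuron markers *Snap25*, *Syt1*, *Rbfox3*, *Meg3* and *Snhg11* were also counted in these cells. The endothelial-like cell of the 17 held 245 of them. An oligodendrocyte-like cell of library 1 held 163, and a different such cell of library 2 held 109. The richest of the 17 cells, in library 2, had 81 *Tac1* UMIs among 38023 UMIs. It had 1 neuron marker UMI and none of *Penk*, *Pdyn*, *Scg2* or *Vgf*. The richest oligodendrocyte-like cell of library 1 had 26 *Tac1* UMIs among 44709, with 2 neuron marker UMIs. As a class, oligodendrocyte-like cells were at 24.0 and 33.2 CPM of *Tac1*, not past the threshold against microglia-like cells (0.69 ± 0.33, SE, edgeR adjusted p = 0.0806). One endothelial-like cell of library 1 had 81 *Npy* UMIs among 5348 and no *Sst*, and 1 neuroblast-like cell of library 2 had 29 *Npy* UMIs and no *Sst*.

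Neuroblast-like cells, the young neurons of the subventricular zone, asked whether peptide genes were already on in the immature neuronal lineage. None of the 9 tested genes was higher in them than in the non-neuronal classes (edgeR), beside 31.3% of all genes higher and 26.7% lower. At an unadjusted p under 0.05, 9397 of 15247 genes passed. DESeq2 also called none higher, while 1 gene became higher with under 20% mitochondrial UMIs and 1 at resolution 0.32. *Tac1* was lower by the smallest of margins (-0.71 ± 0.30, SE, edgeR adjusted p = 0.0485), at 22.7 and 14.0 CPM. This call was lost under 7 other settings, DESeq2 among them. At the finer resolution of 0.32 the log2 fold change of *Tac1* changed sign, to 0.0508. *Penk* was at 24.5 and 9.90 CPM and *Scg2* at 7.80 and 6.15 CPM, both in the range of the glial classes. *Pcsk1n* did not differ from the mean of the non-neuronal classes (0.02 ± 0.22), which includes the *Pcsk1n*-rich OPC-like class, but was higher than in microglia-like cells alone (1.22 ± 0.29, SE, where 31.7% of all genes were higher). All 9 genes were higher in neuron-like than in neuroblast-like cells, by log2 fold changes from 2.87 (*Pcsk1n*) to 6.92 (*Scg2*), beside 25.4% of all genes, and the largest of these adjusted p values was 6.06e-05 (edgeR).

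Within the neuron-like class, cells with a *Drd1* UMI and none of *Drd2*, *Adora2a* or *Gpr6* (95 and 91 cells) were compared with cells with a UMI of one of these and none of *Drd1* (93 and 50 cells). Another 10 and 3 cells had both and 184 and 115 had neither. Depth was close, with medians of 3962 and 4070 UMIs in Drd1 and 4310 and 4094.5 in Drd2 neurons. *Penk* was the largest difference. It was at 154 and 82.2 CPM in Drd1 neurons and at 7024 and 5251 CPM in Drd2 neurons, which is lower in Drd1 neurons by 54.7-fold (log2 fold change -5.77 ± 0.24, SE). *Tac1* was at 2238 and 1816 CPM in Drd1 and 126 and 128 CPM in Drd2 neurons (3.96 ± 0.21), and *Pdyn* at 176 and 153 CPM in Drd1 neurons and at 14.0 CPM and 0 UMIs in Drd2 neurons (4.25 ± 0.45). In the same fit 0.425% of 7769 genes were higher and 0.219% lower in Drd1 neurons.

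*Cck* (2.03 ± 0.34), *Npy* (4.80 ± 0.53) and *Sst* (4.40 ± 0.61) were also called higher in Drd1 neurons, but each rested on few cells. The library 2 cell with 1697 *Npy* UMIs had 2 UMIs of *Drd1* and fell into the Drd1 group. In library 1, without replicate 2, the values were 0.35 for *Sst* and 1.14 for *Npy*. Of the 143 *Cck* UMIs in the Drd1 neurons of library 1, 123 came from the *Slc17a7*-positive cell. Without the library block, *Penk* and *Tac1* passed and *Pdyn* did not (edgeR adjusted p = 0.0695). *Penk*, *Tac1* and *Pdyn* passed with DESeq2. In place of this split, subclusters named Drd1 and Drd2 projection neuron-like at resolution 1.0 were mixed in these genes, with *Penk* at 1257 and 1295 CPM in the former, and only *Penk* passed between them (-1.72). The granins were not called different in the split by receptor UMIs. This comparison recovered only 28% of simulated 2-fold changes, a rate over genes of many levels that was not measured for the granins alone. *Pcsk1n* was at 901 and 1164 CPM in Drd1 and 920 and 1258 CPM in Drd2 neurons (-0.11 ± 0.17), *Scg2* differed by -0.00 ± 0.19 and *Vgf* by -0.07 ± 0.17 (SE), with edgeR adjusted p from 0.941 to 0.999. The *Scg2* value joined opposite differences, since it was at 803 CPM in Drd1 and 983 CPM in Drd2 neurons of library 1 and at 1007 and 772 CPM in those of library 2, with no overlap of the counting intervals in either. The sign of these granin values changed between settings for *Pcsk1n* and *Scg2*.

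**Figure D5:**
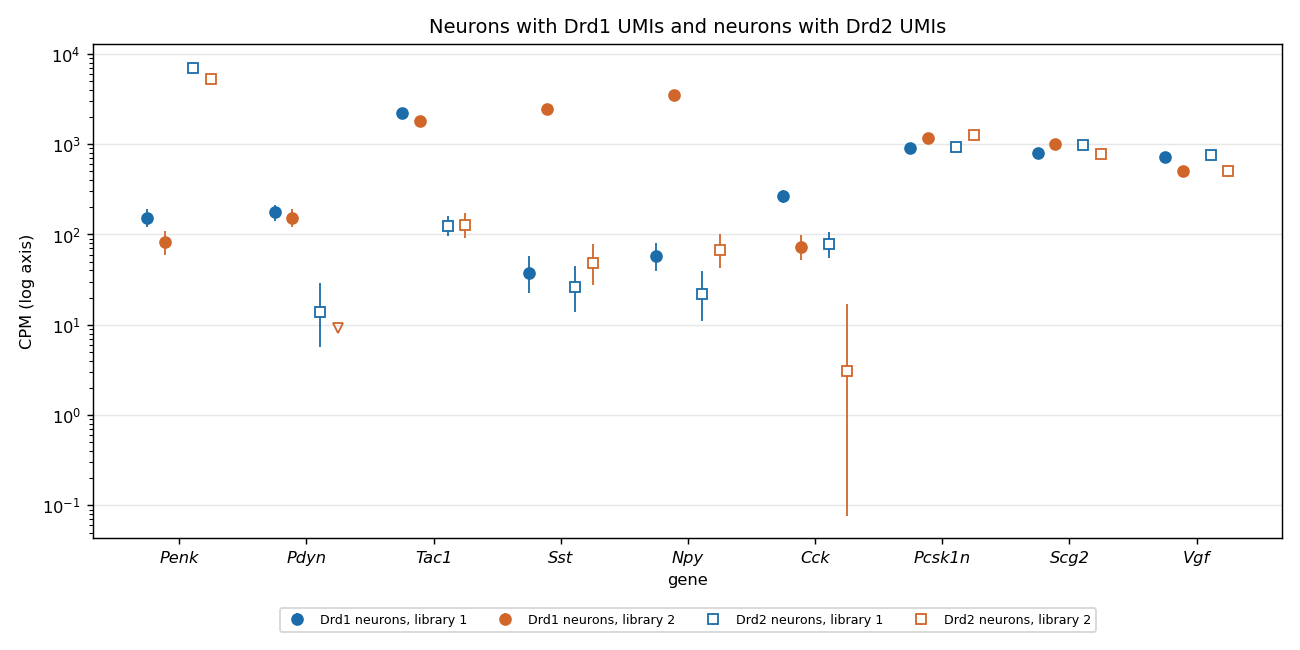
Level of 9 genes (CPM, log axis) in Drd1 neurons (filled circles) and Drd2 neurons (open squares), coloured by library, with exact 95% Poisson intervals. The open triangle is the limit for *Pdyn*, at 0 UMIs in Drd2 neurons of library 2. *Penk* lies lower and *Tac1* and *Pdyn* higher in Drd1 neurons in both libraries, *Pcsk1n* and *Vgf* overlap, *Scg2* lies lower in Drd1 neurons of library 1 and higher in those of library 2, and *Sst* and *Npy* are high only in Drd1 neurons of library 2.

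Single cells showed the same division. With at least 3 UMIs as the mark of a positive cell, 86 and 48 neuron-like cells were positive for *Penk* and 97 and 82 for *Tac1*, and 7 and 2 were positive for both. *Tac1* was present at that level in 15 of 16 and 7 of 8 *Pdyn*-positive cells. *Sst* and *Npy* were found together in 4 cells of library 1 (of 5 *Sst*-positive and 6 *Npy*-positive cells) and in 10 of library 2 (of 17 and 11). *Scg2* accompanied both sides, in 45 of 86 and 25 of 48 *Penk*-positive cells and in 58 of 97 and 40 of 82 *Tac1*-positive cells.

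At the resolution chosen for subclusters of neurons, 0.5, no subcluster kept the name interneuron-like. The comparison of interneurons with projection neurons was therefore not made as planned. A subcluster of 14 and 17 cells, with 4 interneuron markers raised, first met the naming rule. It lost the name because it also held projection neuron markers, by a rule made after the data were seen. In library 1 it had *Penk* at 4167 CPM, 1 *Sst* UMI and 2 *Npy* UMIs. At resolution 1.0 a subcluster of 13 and 17 cells lost the name by the same rule. Another, of 47 and 42 cells, was named interneuron-like, with 8 interneuron markers raised. None of these markers was among its 10 leading genes, where *Slc17a7* was, so that it is not a pure class. The richest *Cck* cell of each library also held *Slc17a7*, as given above. *Sst* and *Npy* UMIs were concentrated in few neuron-like cells, and no other setting was run for this comparison. Against projection neuron-like cells, *Sst* (8.03 ± 0.72), *Npy* (7.96 ± 0.70) and *Cck* (5.71 ± 0.45) were higher and *Penk* (-3.59 ± 0.31), *Tac1* (-3.00 ± 0.42) and *Pdyn* (-2.73 ± 0.41, log2 fold change ± SE) lower, beside 5.19% of 5757 genes higher and 5.19% lower. *Npy* was at 757 CPM there in library 1 and at 10797 CPM in library 2. At resolution 0.5, a subcluster of 13 and 23 cells, led by *Rreb1* and *Nrp2* and left unnamed, had *Tac1* at 3277 and 5439 CPM, 1 and 2 *Penk* UMIs, and no UMI of *Pdyn* or *Sst*. In library 1 its 24720 UMIs left an upper 95% limit of 149 CPM for such genes. *Pdyn* was at 166 CPM in projection neuron-like cells of that library, so its absence lay near the limit.

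The other genes of the peptide system were taken from 4 lists. Of the 16 processing and vesicle genes, 14 were higher and 2 lower in neuron-like cells than in the non-neuronal classes, beside 26.4% higher and 30.3% lower over all genes, with a list median of 3.71 beside -0.17. *Ptprn2* (6.06 ± 0.36), a vesicle membrane protein, *Pcsk1* (6.01 ± 0.41) and *Pcsk2* (5.54 ± 0.16), the convertases that cut the precursors, and *Chgb* (5.71 ± 0.23, SE), chromogranin B, had the largest differences. Against microglia-like cells, 13 of 16 were higher in OPC-like cells and 13 of 16 in neuroblast-like cells, beside 27.8% and 31.7% of all genes. In oligodendrocyte-like and astrocyte-like cells 9 and 7 of 16 were higher, beside 30.1% and 28.2% of all genes. In OPC-like cells 1 was lower, beside 31.8% of all genes, with *Chgb* at 108 and 130 CPM and *Pcsk2* at 156 and 101 CPM. *Cpe*, the carboxypeptidase that trims the cut peptides, and *Scg3* were at higher levels in astrocyte-like than in neuron-like cells, at 2332 and 2043 CPM and at 1318 and 1276 CPM, against 894 and 632 CPM and 176 and 125 CPM in neuron-like cells.

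Of the 12 other precursors, 6 were tested and 4 were higher in neuron-like cells (26.4% of all genes were), namely *Tac2* (6.23 ± 0.39, neurokinin B), *Cartpt* (4.83 ± 0.32), *Nts* (4.08 ± 0.16, neurotensin) and *Nxph1* (3.22 ± 0.52, SE), a secreted neurexin ligand that was at 412 and 449 CPM in OPC-like and 20.7 and 37.7 CPM in neuron-like cells. *Tac2* was at 3.89 CPM in library 1 and 106 CPM in library 2. Of the 16 receptors, 12 were tested and 11 were higher in neuron-like cells, beside the same 26.4%. Some of the 11 were at higher levels in glial classes than in neurons. *Adcyap1r1* was at 35.6 and 56.2 CPM in neuron-like cells and at 138 and 149 CPM in OPC-like cells. In astrocyte-like cells it was at 130 and 174 CPM. *Sstr1* was at 1.94 and 4.01 CPM in neuron-like and 39.5 and 66.8 CPM in OPC-like cells. *Oprk1*, the dynorphin receptor, was at 58.3 and 49.8 CPM in neuron-like cells (7.84 ± 0.43). *Oprm1* (7.43 ± 0.69), *Npy5r* (5.90 ± 0.73) and *Sstr2* (5.67 ± 0.72, SE) were each at no more than 16.1 CPM there. Of the 12 peptide-degrading enzymes, 3 were higher, a share near that of all genes, and 2 lower, with a median of 0.27. *Mme*, the neprilysin that degrades enkephalin, was at 47.9 and 62.6 CPM in neuron-like cells and had no UMI in OPC-like cells (6.38 ± 0.37), *Ece2* (2.78 ± 0.41) and *Ace* (2.34 ± 0.52) were higher, and *Prep* was lower (-1.03 ± 0.29, SE).

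The genes whose levels ran most alike were sought over the 18 class sums (9 classes in 2 libraries) by Pearson correlation of log2(CPM + 10). These points share libraries and cells, so the values are a description. *Penk* was closest to *Syndig1l* (r = 0.99), *Pdyn* to *Cntnap3* (0.99), *Tac1* to *Rab40b* (0.98), *Cck* to *Ddn* (0.98), *Scg2* to *Slc12a5* (0.99) and *Vgf* to *Kcnj4* (0.99). *Sst* was closest to *Gm47033* (0.98) and *Npy* to *Cpne7* (0.97), both with the library 2 neurons far from the other points. *Pcsk1n* stood apart, with *Slc22a17*, *Slitrk5* and *Pcdh11x* (0.96 each) as its nearest genes.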

How the data were processed

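Droplet-based 3′ scRNA-seq of striatal cells was deposited as 2 libraries. The counts deposited by the authors are whole UMI counts per gene and cell barcode, from reads aligned to mm10 with Cell Ranger (version 4.0 in the submitters' processing notes; the labels name v2 and v3 kits without saying which library used which). Barcodes with at least 300 detected genes and genes found in more than 3 cells were kept, and Scrublet (scanpy 1.11.5, expected rate 6%) removed 1.39% and 2.96% of barcodes as doublets. Libraries were integrated with Seurat 5.3.0 (2000 variable genes, 30 components, resolution 0.08), leaving out 66 peptide genes, and clusters were named where at least 3 markers were raised 2-fold over the other cells (10 CPM added). At resolution 0.5 and at 1.0 a subcluster that also held projection neuron markers lost its interneuron name, by a rule made after the data were seen. UMIs were summed per library and class (at least 20 cells in each) and tested with edgeR 4.0.16 (TMM, filterByExpr, quasi-likelihood, library as block, adjusted p under 0.05). DESeq2 1.42.0 was an alternative. Values of single libraries are differences of log2 CPM with a prior count of 2, which the tests did not use, so the 2 kinds of value are not computed alike. The block pairs classes that come from the same cell suspension. The tests were checked on simulated counts with known changes. In these counts all groups shared the same mean profile, and the spread followed its trend over genes. Changes were put into 200 genes above a minimum level, in the neuron-like or the Drd1 group alone. The rates thus do not describe classes that differ in many genes, or genes as uneven as *Sst* and *Npy*. For neuron-like against non-neuronal classes, 92% of 2-fold and 100% of 4-fold changes were recovered, with 10 false calls. For Drd1 against Drd2 neurons, 28% of 2-fold and 80% of 4-fold changes were recovered, with 1 false call. Any of the 10 genes not named in a comparison, singly or among all 9, did not pass or, for *Vip*, was not tested. The comparison of OPC-like with neuron-like cells is given for *Pcsk1n* alone. From each of 4 lists up to 4 genes past the threshold with the largest difference in neuron-like cells are named. Other list genes were chosen after their values were seen. For each of the 10, up to 3 genes of most alike level are named. The genes and lists were chosen with earlier results of these data known. Gene positions are from GENCODE vM21.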

Additional observations from a re-analysis of the deposited data

How the results depend on the processing

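Of 68 values that summarise a comparison under another setting, 61 kept their direction and size class and 7 moved. Of 548 values of single genes, 475 stayed, 33 lost and 8 gained the threshold, 21 moved and 11 changed sign. In neuroblast-like cells, with 0 genes higher as reported, 1 gene was higher with under 20% mitochondrial UMIs, at resolution 0.32 and against microglia-like cells alone. The 6 calls of Drd1 against Drd2 neurons, counted as 5 higher and 1 lower, were 3 with DESeq2 and 1 between the subclusters. Without the replicate block that pairs the classes of one library they were 2, and in the other comparisons dropping the block cost the glial *Penk* calls, *Scg2* in OPC-like and oligodendrocyte-like cells and *Tac1* in neuroblast-like cells. With either library left out, the median log2 fold change ranged from 4.69 to 6.84 in neuron-like cells, 4.94 to 6.26 against neuroblast-like cells, -0.36 to -0.0067 in neuroblast-like cells, -0.58 to -0.03 in glial and vascular classes and 0.35 to 3.36 in the Drd1 comparison. Between Drd1 and Drd2 neurons *Pcsk1n* turned to 0.0654 without its UMIs in its richest cell and to 0.19 between subclusters. *Scg2* turned to 0.0377 with library sizes alone, 0.0521 with doublets kept and 0.10 under 20% mitochondrial UMIs. It turned to 0.16 without its UMIs in its richest cell, 0.11 without the subcluster led by astrocyte genes and 0.27 between subclusters. The log2 fold change of *Tac1* in neuroblast-like cells turned to 0.0508 at resolution 0.32. That of *Pcsk1n* in OPC-like against neuron-like cells turned to -0.15 at 500 genes and -0.29 at resolution 0.32. The cause of these changes was not tested. The comparison of interneurons at resolution 0.5 was not run, since the only subcluster with that name lost it. Under 20% mitochondrial UMIs a cluster of 1444 cells had no name. *Vip*, at 1 and 18 UMIs in neuron-like cells, was too sparse to test.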
